A study of Mus musculus with 18 samples.

Results

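Binding of BMAL1 was compared between mouse liver and mouse kidney, site by site, from 1 peak list per tissue. The liver list held 4813 peaks and the kidney list 4034, of 11366 peaks in all lists of the series. A liver and a kidney peak with 1 bp or more in common were taken as the same site, which gave 1478 one-to-one pairs. Each list was ranked by its own score and each score was turned into a percentile, the share of that list's peaks with a lower score, with tied peaks placed at the middle of their tie. Sites were then described in 2 ways: the shared pairs whose percentile differed most between the tissues, and the peaks in the top decile of a list, its highest 10% by percentile, that overlapped no peak of the other. The top decile held 482 liver peaks, of which 96 had no kidney overlap, and 409 kidney peaks, of which 45 had no liver overlap. The gene given for a peak is the closest protein-coding one within 50 kb, which is a statement about position and does not show that BMAL1 acts on that gene.

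The libraries came from wild type C57BL/6 mice aged 3 to 6 months, on a cycle of 12 h light and 12 h dark. Liver and kidney were taken at ZT 6, that is 6 h after lights on, from the same animals, with 3 mice per tissue. The antibody came from chicken and recognizes the N-terminal part of BMAL1, and 3 precipitated and 3 input libraries of each tissue went into its 1 list. A pooled list has no spread between mice. Differences between the tissues therefore carry no error between mice and no test, and shares are given with exact Clopper-Pearson 95% intervals that cover counting error only. The labels name the organs and no cell type within them, so the mix of cell types and binding within a cell type cannot be told apart.

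BMAL1 is one of the transcription factors at the core of the circadian clock. It pairs with CLOCK, and the pair binds DNA at E-boxes, of which CACGTG is the canonical form, and activates genes such as the Per, Cry and Rev-erb genes, whose products feed back on the pair. In liver the clock is known for daily rhythms in glucose, lipid and bile acid metabolism, and in kidney for rhythms in the transport of salt, water and solutes.

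Promoter sequences under peaks of each kind are printed here so that the E-boxes can be seen beside the ranks. They come from the RefSeq promoter table of GRCm38.p6, cover the bases that lay under the peak, before the start site and outside every annotated gene, and run 5′ to 3′ on the strand of the gene. Capitals mark the matches to CACGTG and, read on either strand, to its 1-base variant CACGTT. The examples were taken from the 3 highest of each kind for which such a stretch of at least 100 bases existed, picked with the values in view. Of the 15 stretches that met this rule, 8 held a match to either motif and all 8 are among the 10 printed, while the 5 not printed, at Dbp, Mapk6, Il4ra, Cdc73 and Cers5, held neither. Cry2 (chr2:92434086-92434307, minus strand), a repressor of the clock, stands for the sites that ranked alike. Slc25a1 (chr16:17928220-17928458, minus strand), the mitochondrial citrate carrier, and Ppfia4 (chr1:134344757-134344906, minus strand), a liprin scaffold protein, ranked higher in liver. Tmem30b (chr12:73546396-73546528, minus strand), a subunit of lipid flippases, and Bcl7c (chr7:127708767-127708948, minus strand), a chromatin-remodelling subunit, ranked higher in kidney. Inf2 (chr12:112588517-112588673, plus strand), a formin of the actin cytoskeleton, Lamtor4 (chr5:138255272-138255481, plus strand), a subunit of the Ragulator complex on lysosomes, and Mfsd1 (chr3:67582585-67582767, plus strand), a lysosomal membrane transporter, lay under top-decile liver peaks without kidney overlap. Lrp2 (chr2:69586151-69586279, minus strand), which encodes megalin, the endocytic receptor of the proximal tubule, and Macrod1 (chr19:7056589-7056727, plus strand), an ADP-ribose hydrolase, lay under top-decile kidney peaks without liver overlap.
Cry2: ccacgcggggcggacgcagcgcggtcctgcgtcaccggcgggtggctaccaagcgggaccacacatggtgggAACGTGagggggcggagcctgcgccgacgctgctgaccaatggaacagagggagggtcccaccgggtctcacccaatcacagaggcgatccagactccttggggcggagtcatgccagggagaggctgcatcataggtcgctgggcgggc
Slc25a1: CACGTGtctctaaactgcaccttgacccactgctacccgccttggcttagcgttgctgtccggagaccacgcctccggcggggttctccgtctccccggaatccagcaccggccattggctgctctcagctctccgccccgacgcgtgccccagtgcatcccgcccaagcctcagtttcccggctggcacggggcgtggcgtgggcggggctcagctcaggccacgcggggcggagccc
Ppfia4: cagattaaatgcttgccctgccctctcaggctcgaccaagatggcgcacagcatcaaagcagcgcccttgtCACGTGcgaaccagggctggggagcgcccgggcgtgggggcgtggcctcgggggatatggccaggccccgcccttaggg
Tmem30b: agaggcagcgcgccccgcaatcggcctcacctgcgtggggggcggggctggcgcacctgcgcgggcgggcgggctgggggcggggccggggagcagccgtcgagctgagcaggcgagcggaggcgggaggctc
Bcl7c: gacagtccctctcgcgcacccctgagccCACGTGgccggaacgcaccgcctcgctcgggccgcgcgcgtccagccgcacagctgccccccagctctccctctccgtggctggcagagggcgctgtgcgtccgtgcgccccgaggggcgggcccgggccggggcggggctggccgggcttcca
Inf2: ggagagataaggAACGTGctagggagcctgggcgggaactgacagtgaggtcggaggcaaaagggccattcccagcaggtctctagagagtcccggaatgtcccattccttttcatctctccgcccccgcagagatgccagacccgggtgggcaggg
Lamtor4: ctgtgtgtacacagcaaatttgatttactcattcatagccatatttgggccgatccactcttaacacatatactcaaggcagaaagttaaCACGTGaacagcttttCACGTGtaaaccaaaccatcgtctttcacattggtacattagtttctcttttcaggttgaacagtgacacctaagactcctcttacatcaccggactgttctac
Mfsd1: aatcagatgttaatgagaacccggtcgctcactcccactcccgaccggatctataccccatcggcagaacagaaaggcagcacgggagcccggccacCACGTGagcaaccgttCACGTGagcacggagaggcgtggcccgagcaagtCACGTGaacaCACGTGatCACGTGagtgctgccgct
Lrp2: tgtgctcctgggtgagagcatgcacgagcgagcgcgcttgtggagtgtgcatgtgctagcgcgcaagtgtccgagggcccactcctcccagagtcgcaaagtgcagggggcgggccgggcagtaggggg
Macrod1: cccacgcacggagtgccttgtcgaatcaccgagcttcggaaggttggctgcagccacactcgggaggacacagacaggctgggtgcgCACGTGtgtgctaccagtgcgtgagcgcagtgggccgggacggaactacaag

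In Mfsd1 the stretch held 5 copies of CACGTG and in Lamtor4 it held 2, and in both the first 2 copies started 16 bases apart. Slc25a1, Ppfia4, Bcl7c and Macrod1 had 1 copy each, Cry2 and Inf2 had 1 copy of the variant, and the Tmem30b and Lrp2 stretches had neither. At the shared sites, Slc25a1 stood at percentile 82.7 in liver and 43.2 in kidney, Ppfia4 at 55.0 and 19.6, Tmem30b at 8.82 and 56.3, and Bcl7c at 13.7 and 43.2. A missing match says only that these letters were not in the window. Over all promoters under a peak by at least 100 bases, CACGTG, searched on both strands, was present in 43.8% of 742 windows in liver and 41.9% of 934 in kidney, against 7.84% of all 21262 promoter windows of the same length. Windows under top-decile liver peaks held it in 6 of 12 cases without kidney overlap and in 95 of 152 with it (62.5%). Windows under top-decile kidney peaks held it in 7 of 13 cases without liver overlap and in 93 of 148 with it (62.8%). Among the shared pairs it was found in 14 of 24 windows where the site ranked higher in liver, 8 of 16 where it ranked higher in kidney and 218 of 418 of the others (52.2%). The E-box was thus well above its share of all promoters in every class, and the windows of the sites that differed were too few to tell their shares from those of the others. The variant CACGTT was present in 5 of the 24 windows higher in liver (20.8%), none of the 16 higher in kidney and 10.0% of the others. Its share of all promoter windows was 4.68%. The windows higher in either tissue were again too few to tell their shares apart. The remaining motifs searched were TGTTTAC of forkhead factors, CAAAGTCCA of HNF4, TCAAGGTCA of estrogen-related receptors, TTGCGNAA of C/EBP factors, the D-box TTATGNAA and AACCGGTT of grainyhead factors. None of these 6 was found in the 12 liver or the 13 kidney windows under top-decile peaks without overlap, and each occurred in at most 3.09% of all promoter windows, so their absence from so few windows carries no information on those factors.

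The first comparison asked how far sharing depended on the rank of a site. The pairs made up 30.7% of the liver list and 36.6% of the kidney list. In the lowest decile of the liver list 4.33% of peaks overlapped a kidney peak (21 of 485, 95% interval 2.70 to 6.54%), and in the highest decile 80.1% did (386 of 482, 76.2 to 83.6%). In kidney the share ran from 9.50% (38 of 400, 6.81 to 12.8%) to 89.0% (364 of 409, 85.6 to 91.9%). Sharing rose with rank in both lists, so a strong peak without a partner was the exception and a weak one the rule.

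**Figure D1:**
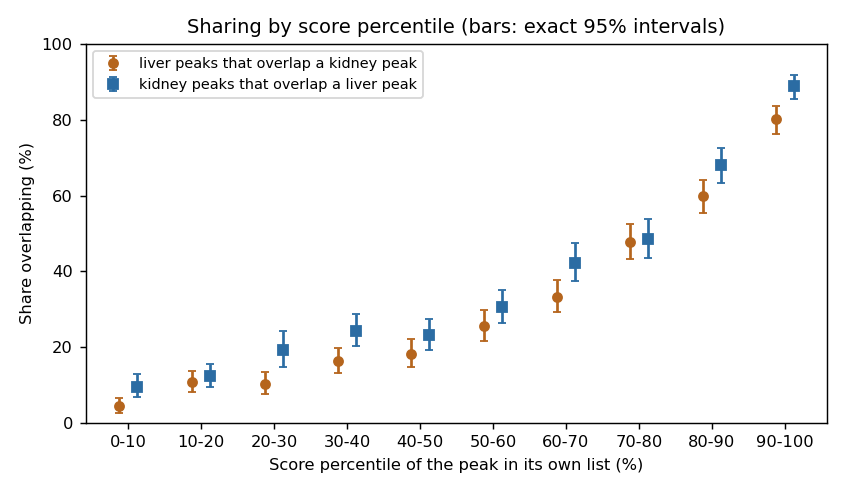
The share of peaks that overlap a peak of the other tissue (vertical axis, %) is plotted for each decile of score percentile in the peak's own list (horizontal axis), for liver (circles) and kidney (squares), with exact 95% intervals of counting error. It climbs from 4.33% to 80.1% in liver and from 9.50% to 89.0% in kidney.

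Paired sites lay close together and ranked much alike. The median gap between the centres of a pair was 19 bp and the largest was 197 bp. The percentile in liver minus that in kidney had a median of 0.404 points over the 1478 pairs, with quartiles of -6.69 and 10.7, and 828 pairs (56.0%) were within 10 points. Spearman's rho between the 2 scores was 0.735 over the 1478 pairs, which share the same loci and are not independent samples. Of the pairs, 268 were in the top decile of both lists, 118 in that of liver alone and 96 in that of kidney alone. Among top-decile liver peaks with a partner, 14 had a kidney percentile under 50. The reverse was found once, at Syn3, which encodes a synapsin, with 44.7 in liver and 92.8 in kidney.

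The core clock had shared sites at most of its genes, and the highest site of nearly all of these was near the top of both lists. The list of 20 core clock and output genes had liver peaks at 17, kidney peaks at 18 and a shared pair at 17, against 14.7%, 13.9% and 5.80% of all 21896 protein-coding genes. None had a pair 25 points apart in either direction, where 0.722% and 0.365% of all genes had one higher in liver or in kidney, and none had a top-decile peak without a partner, where 0.397% and 0.192% had one. Most protein-coding genes had no pair, which lowers these shares. Of the 1270 genes with a shared pair, 12.4% and 6.30% had one past 25 points. Of the genes with a peak, 2.70% in liver and 1.38% in kidney had a top-decile peak without a partner. Whether the clock genes differ from these shares was not tested. The highest peak of each list was the same site, near Nr1d1, which encodes the repressor REV-ERBα, with a score of 389 in liver and 304 in kidney. The 2 sites of Per1, a repressor of the clock, stood at percentiles 99.9 and 99.0 in liver and 99.8 and 98.8 in kidney. Both sites of Cry2 were above 99 in each list, among them the promoter shown above, at 99.2 in liver and 99.6 in kidney. Percentiles this high leave room for small gaps only. Nfil3, a repressor of D-box genes, stood at 98.8 in liver and 94.9 in kidney, with a score of 191 and rank 57 in liver and a score of 100 and rank 203 in kidney. One of 5 sites at Hlf, a D-box activator, stood at 73.6 in liver and 87.4 in kidney, and one at its relative Tef differed by -7.33 points. One of 3 sites of Bhlhe41, an E-box repressor, was 6.52 points higher in liver. Rora, an activator of Arntl, stood at 70.4 and 73.7. Arntl, the gene of BMAL1 itself, had a single kidney peak at percentile 40.3 and no liver peak, and Clock and Npas2, the remaining 2 genes of the list, had none in either tissue.

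The second comparison asked which shared sites changed rank most. A pair was counted as higher in a tissue when its percentile there exceeded that in the other by at least 25 points. By this rule 179 pairs (12.1%) were higher in liver and 87 (5.89%) in kidney. They were assigned to 158 and 80 genes, 12.4% and 6.30% of the 1270 genes with a shared pair, and no gene had a pair in each direction. The excess on the liver side depended on how the lists were ranked. With percentiles taken among the shared peaks only, 148 pairs were higher in liver and 136 in kidney, and with the 4034 highest peaks of each list the counts were 123 and 141. The direction of single sites did not turn among the shared peaks only, where all 179 and all 87 kept their sign. Of these, 113 and 66 remained past 25 points. In the lists of 4034 peaks all 179 kept it as well, and of the 87 the 66 whose liver peak was still listed did so. That result was fixed in advance, since the kidney list stays whole there and only the lowest liver peaks drop out. Percentiles of lists of different length do not show that binding itself was stronger in a tissue, and low scores are coarse, with 1 score value spanning up to 4.96 points in kidney and 2.83 in liver.

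**Figure D2:**
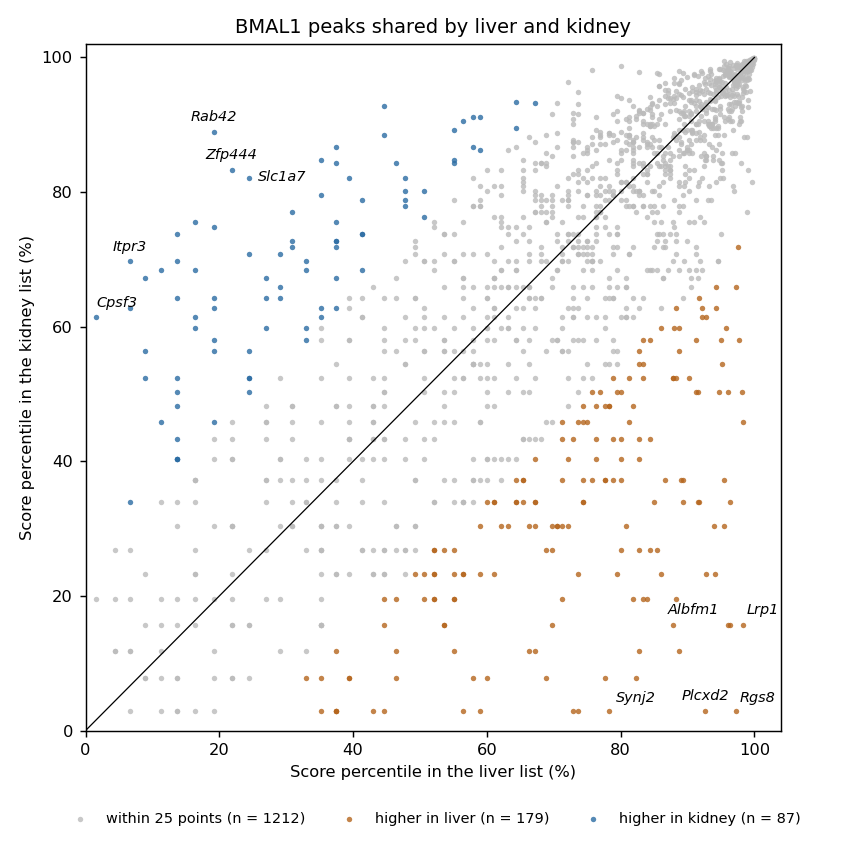
Each of the 1478 shared sites is plotted by its score percentile in the liver list (horizontal axis, %) and in the kidney list (vertical axis, %); the line marks equal percentiles, and colours mark the 179 sites at least 25 points higher in liver and the 87 at least 25 points higher in kidney. Points crowd to the line at the upper right, and the widest departures, such as Rgs8 and Rab42, combine a high percentile in one list with a low one in the other.

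Among sites higher in liver, the widest gap belonged to Rgs8, a regulator of G-protein signalling. Its site 82 bp outside the gene had a score of 153 and rank 133 in liver (percentile 97.2) and a score of 14 and rank 3802 in kidney (percentile 2.89). A second Rgs8 site, inside the gene, stood at 91.7 in liver and 93.6 in kidney, so the gap belonged to 1 of its 2 sites. Plcxd2, a phospholipase C-like gene, stood at 92.6 in liver and 2.89 in kidney. Lrp1, an endocytic receptor of hepatocytes and many other cells, stood at 98.3 and 15.7, at a site 669 bp upstream of its start site. Albfm1, a gene of the albumin family, stood at 96.4 and 15.7. Each of these sites was near the top of the liver list and near the bottom of the kidney list.

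Several others of the 14 widest gaps belonged to regulators of growth signalling and transcription. Ski, a repressor of SMAD proteins, stood at 82.2 in liver and 7.85 in kidney. Bmper, a secreted binder of bone morphogenetic proteins, stood at 88.7 and 11.8, and Mn1, a transcriptional coregulator, at 96.0 and 15.7 at a site 49537 bp away. Zmiz1, another coregulator, stood at 92.8 and 23.2. These 14 genes were ranked by the gap alone and share no role that was tested. The rest were Synj2, a phosphoinositide phosphatase (78.3 and 2.89), Dock1, an activator of Rac (87.8 and 15.7), Fhad1 (82.7 and 11.8), Gnat1, the transducin subunit of rods (94.0 and 23.2), Tnks2, a tankyrase (72.8 and 2.89), and Abcc2. Abcc2 encodes MRP2, the export pump of the bile canaliculus that is also found on proximal tubule cells. Its site inside the gene stood at 77.6 in liver and 7.85 in kidney, and its site 121 bp upstream of the start site at 76.9 and 50.3.

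Among sites higher in kidney, Rab42, a small GTPase, had the widest gap. Its site 2033 bp outside the gene had a score of 24 and rank 3823 in liver (percentile 19.2) and a score of 71 and rank 441 in kidney (percentile 89.0). Zfp444, a zinc-finger gene, stood at 21.8 in liver and 83.3 in kidney, and Slc1a7, a glutamate transporter, at 24.4 and 82.1. Cd27, a receptor of the tumour necrosis factor family, stood at 13.7 and 73.7. None of the 14 widest gaps on this side reached the top decile of the kidney list, and their kidney ranks ran from 441 to 1530, against liver ranks from 84 to 1293 for the 14 on the liver side. The size of the gaps depended on the length of the lists. With the 4034 highest peaks of each, liver minus kidney was -85.4 points at Rab42 and -76.5 at Zfp444, against 93.8 at Rgs8 and 64.7 at Tnks2.

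The others on that side were Ywhaz, a 14-3-3 protein (16.3 in liver and 75.5 in kidney), Cpsf3, the nuclease of messenger RNA 3′ processing (1.56 and 61.4), Krba1 (8.82 and 67.3), Pi16, a peptidase inhibitor (11.3 and 68.5), and Ext1, an enzyme of heparan sulfate synthesis (6.60 and 62.8). Gtdc1, a glycosyltransferase-like gene, stood at 19.2 and 74.7, at a site 275 bp from its start site. Mrpl4, of the mitochondrial ribosome, stood at 16.3 and 68.5, Ankrd6, of Wnt signalling, at 13.7 and 64.3, at a site 35 bp from its start site, and Anks1, an ankyrin-repeat adaptor, at 35.2 and 84.8. The 14 sites overlapped a heart peak in 3 cases, against 1 of the 14 on the liver side, Lrp1.

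**Figure D3:**
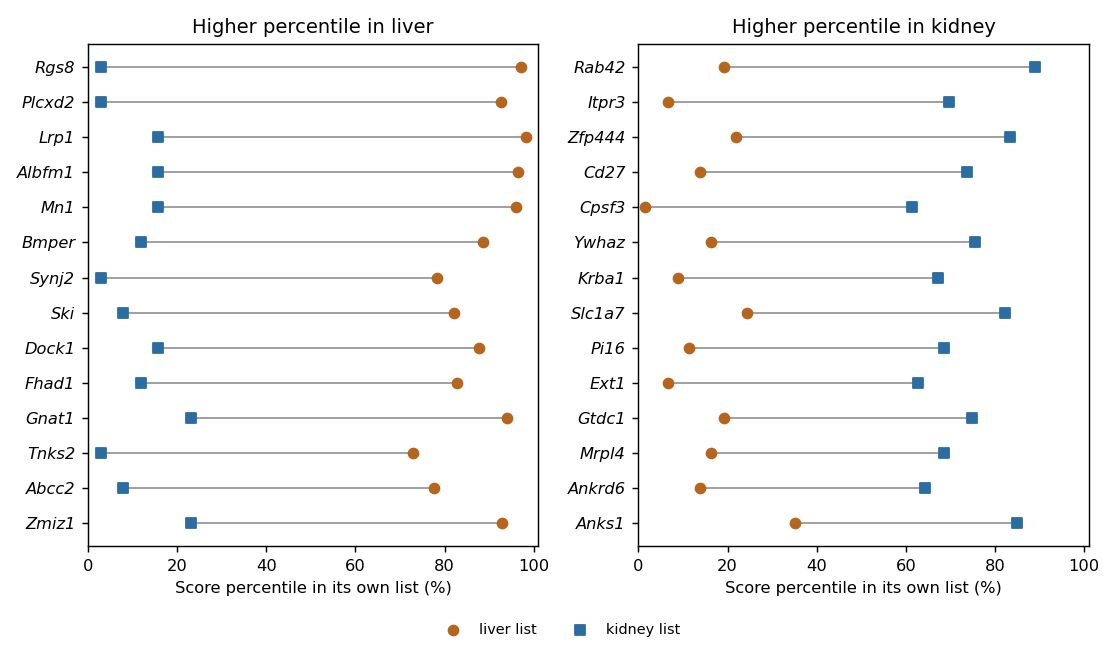
For the 14 genes with the widest gap in each direction, the score percentile in the liver list (circles) and in the kidney list (squares) is plotted on the horizontal axis (%), joined by a line. On the liver side the kidney percentiles lie between 2.89 and 23.2, and on the kidney side the liver percentiles lie between 1.56 and 35.2.

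The type 1 and type 3 receptors for inositol trisphosphate, the calcium channels of the endoplasmic reticulum, appeared on opposite sides. The pair was picked after its values were seen. Itpr1 had sites inside the gene at 84.3 and 80.1 in liver against 26.8 and 37.2 in kidney, and a further site outside it at 80.7 against 90.9. Itpr3 had a site at its start and another upstream of it, at 6.60 and 37.4 in liver against 69.7 and 84.3 in kidney. Both high-in-liver sites of Itpr1 were thus inside the gene, and both sites of Itpr3 were at its promoter.

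Genes with several pairs showed how far sites of 1 gene moved together. Of 122 such genes, 7 had 2 or more pairs higher in liver and 2 had 2 or more higher in kidney. The 7 were Dis3l2, an exoribonuclease, Abcc2, Fhad1, Itpr1, Mtss1, an actin-binding protein, Nfia, a nuclear factor I gene, and Ovol3. The 2 were Itpr3 and Tbc1d1, a regulator of glucose transporter traffic. Dis3l2 had 3 sites higher in liver, inside the gene, at 96.3, 86.0 and 57.9 against 33.9, 23.2 and 7.85 in kidney, while its site 146 bp from a start site stood at 80.7 and 86.3. At Usp2, a deubiquitinase with clock-driven expression, 2 of 3 sites ranked alike, at 97.4 and 97.7 in liver and 98.3 and 93.6 in kidney, and the third stood at 26.9 and 67.3. Sites of a gene thus moved together in some cases, as at Fhad1, with gaps of 70.7 and 70.8 points, and not in others, as at Usp2 and Dis3l2.

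The third comparison asked which strong sites of a tissue had no overlap in the other. In liver, 96 of 482 top-decile peaks (19.9%, 95% interval 16.4 to 23.8%) had none, and in kidney 45 of 409 (11.0%, 8.14 to 14.4%). They were assigned to 87 genes, 2.70% of the 3227 with a liver peak, and to 42 genes, 1.38% of the 3048 with a kidney peak, while 6 and 3 peaks had no gene within 50 kb. No overlap did not always mean no binding nearby. A kidney peak was centred within 5000 bp of 19 of the 96 liver peaks, and a liver peak within 5000 bp of 6 of the 45 kidney peaks. Of the 87 genes, 43 had a kidney peak elsewhere and 44 had none. Of the 42, 12 had a liver peak elsewhere and 30 had none. Taking the 400 highest peaks of each list left 73 and 44 without overlap.

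The highest liver score without kidney overlap was 256, near a predicted gene. The next belonged to Fgd2, an activator of the GTPase Cdc42, and Nav2, a cytoskeletal gene, both with a score of 245 and rank 21 (percentile 99.6). The Fgd2 peak had a kidney peak 1152 bp away at percentile 62.8, while around the Nav2 peak, inside the gene, the nearest was 426483 bp away. Azin2, an antizyme inhibitor of polyamine metabolism, followed with a score of 207 (percentile 99.1) and a kidney peak 3579 bp away at 19.6. Sdr9c7, a short-chain dehydrogenase gene, had a score of 193 (98.9) with no kidney peak within 181277 bp. These liver peaks thus differed widely in how near the closest kidney peak was.

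Some of the strong liver peaks had known metabolic or hormonal genes beside them. Ppp1r3c, a glycogen-targeting subunit of protein phosphatase 1, had a score of 191 (98.8) at a site 176 bp outside the gene, where a heart peak also lay. A kidney peak at 89.3 was 4993 bp away. Nr3c2, the mineralocorticoid receptor through which aldosterone acts on the distal nephron, had a liver peak inside the gene with a score of 162 (97.8). This site also overlapped a heart peak. The 1 kidney peak of Nr3c2, 87929 bp away, stood at 56.3. The mineralocorticoid receptor is best known from kidney, while here the site with its highest percentile was in the liver list. Among the remaining genes, Inf2, whose promoter is shown above, had a score of 151 (97.0), and Phospho1, a phosphatase of bone mineralization, had 159 (97.6) at 261 bp upstream of its start site. Fam47e, Smyd1, a muscle histone methyltransferase, Mamdc2 and Usp36, a nucleolar deubiquitinase, scored between 153 and 186. Mn1 appeared here as well, with 170 (98.1) at a site 942 bp from the kidney peak of its shared pair.

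In kidney the highest score without liver overlap belonged to Fabp3, a fatty acid-binding protein of muscle and other tissues. Its peak, 709 bp upstream of the start site, had a score of 148 and rank 64 (percentile 98.4) and overlapped a heart peak, and the nearest liver peak was 329657 bp away. Ap5s1, a subunit of the adaptor complex AP-5, had a score of 131 (97.4), also with a heart peak. Ndrg1, a stress-responsive gene, and Hmcn2, a hemicentin, each had a score of 117 (96.7), and neither overlapped a heart peak. At Ndrg1 a liver peak at percentile 62.1 was 678 bp away. The first kidney peak without a liver partner thus stood at rank 64 of its list, where the first liver peak without a kidney partner stood at rank 16 of its own.

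Of the other kidney genes, Kifc3, a kinesin, had a score of 115 (96.6), and Crybg2 had 110 (96.2). Pdgfb, the B chain of platelet-derived growth factor, had 104 (95.5) with no liver peak within 77105 bp. Gstt2, a glutathione transferase, had 106 (95.7) at 81 bp outside the gene, and a liver peak at 93.0 was 1727 bp away. Klhl29, a kelch-like gene, Zswim4, Zfp775, a zinc-finger gene, Phf7, a histone-reading ubiquitin ligase, and Amz1, a metallopeptidase, scored between 96 and 107, with the Phf7 peak 21 bp from the start site. Below these 14, and picked after their values were seen, were Lrp2 with a score of 86 (92.8) and no liver peak within 199734 bp, Prss8, the protease that activates the epithelial sodium channel (86, 92.8), Atp6v0b, a subunit of the proton pump (80, 91.5), and Cipc, an inhibitor of CLOCK (78, 91.1). The Cipc peak was 43 bp from the start site, and the 1 liver peak of the gene stood at 52.1.

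One gene, Trim37, a ubiquitin ligase, was on both sides. Its liver peak had a score of 157 (percentile 97.4) and its kidney peak 111 (96.3), on either side of the start site and 13 bp apart. The overlap rule split what could be 1 site, and both counts above include it. A pair of top-decile peaks on chromosome 6 with no gene within 50 kb was 141 bp apart, and the Lamtor4 liver peak, with a score of 137 (95.7), was 9 bp from a kidney peak at 83.3. By contrast the Mfsd1 peak, with a score of 114 (93.1), had no kidney peak within 608592 bp.

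At the limits that set these classes the values were close. In liver the weakest top-decile peaks without overlap scored 99, among them those at Gprc5c, Sipa1l2 and Spag9, and the strongest below the limit scored 98, among them those at Adcy9, Dgat2 and G6pc. In kidney the weakest inside scored 75, at Aldh9a1 and Piezo1, with Ifi30 among those at 76, against 74 at Sec31a and Smagp and 73 at Adap1 outside. Among pairs, Mpv17l (25.1 points), Rc3h1 (25.1) and Gtf2ird1 (25.3) were just inside on the liver side and Mlxipl (24.9), Ulk4 (24.9) and Wipi2 (24.8) just outside. On the kidney side Bahcc1 (-25.2) and Tes (-25.4) were among those just inside and Myo10 (-24.9), Nmral1 (-24.6) and Sardh (-24.3) outside.

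The classes differed in where they lay, a property that did not enter the choice of sites but varied with rank. Among top-decile liver peaks, 64.6% of shared ones were within 1 kb of a start site (204 of 316, 95% interval 59.0 to 69.8%), against 21.5% of those without kidney overlap (17 of 79, 13.1 to 32.2%). Among top-decile kidney peaks these shares were 68.8% (209 of 304, 63.2 to 73.9%) and 34.2% (13 of 38, 19.6 to 51.4%). Pairs higher in liver lay within 1 kb of a start site in 25.5% of cases (37 of 145, 18.6 to 33.4%) and pairs higher in kidney in 34.3% (23 of 67, 23.2 to 46.9%), against 56.8% of the others (564 of 993, 53.6 to 59.9%). Over whole lists the share was 28.9% of liver peaks (1128 of 3897) and 42.5% of kidney peaks (1390 of 3269). It was higher at the top, with 55.9% of all top-decile liver peaks and 64.9% of all top-decile kidney peaks. The shared top-decile peaks and the pairs that ranked alike thus stood above both lists, while the intervals of both kidney classes cover the share of the kidney list and those of both liver classes cover that of the liver list. The intervals of the like and unlike classes did not overlap in any of these comparisons. The pairs that ranked alike include the 268 in the top decile of both lists, while an unlike pair ranks lower in 1 list. Class and rank are thus mixed, and the part of rank was not tested. Only peaks whose gene has a start site in the table were counted. The table holds none on chromosome 18, 54.4% of the protein-coding genes of chromosome 15 and 69.6% of those of chromosome 8.

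The heart list, which was not used to choose any site, gave a further readout. The labels of the heart input libraries are at odds with each other, since their titles say heart and their source names say kidney, and which input the heart list rests on was not tested. Among top-decile peaks that liver and kidney shared, 67.1% of the liver peaks (259 of 386, 62.2 to 71.8%) and 74.5% of the kidney peaks (271 of 364, 69.6 to 78.9%) overlapped a heart peak. Of the top-decile kidney peaks without liver overlap 40.0% did (18 of 45, 25.7 to 55.7%). Of the top-decile liver peaks without kidney overlap 13.5% did (13 of 96, 7.41 to 22.0%). Over whole lists the share was 13.6% of all liver peaks (654 of 4813) and 18.5% of all kidney peaks (746 of 4034). The top-decile liver peaks without kidney overlap thus stood at the share of their list. The top-decile kidney peaks without liver overlap stood above that of theirs. Over all ranks, peaks without overlap stood below their lists, with 4.08% in liver (136 of 3335) and 8.96% in kidney (229 of 2556). Among the 14 named genes of each kind, the peak also overlapped a heart peak at 8 kidney genes and 4 liver genes. Pairs showed the same order, with 26.4% of those higher in kidney (23 of 87, 17.6 to 37.0%) and 11.7% of those higher in liver (21 of 179, 7.41 to 17.4%), against 39.1% of the others (474 of 1212, 36.3 to 41.9%). The interval of the pairs higher in liver covers the share of all liver peaks, that of the pairs higher in kidney covers the share of all kidney peaks, and the pairs that ranked alike stood above both. Heart overlap was also higher at the top of the lists, with 56.4% of all top-decile liver peaks and 70.7% of all top-decile kidney peaks. The 3 lists differ in length and depth of sequencing is unknown. The parts of rank, length and depth in these shares were not tested.

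**Figure D4:**
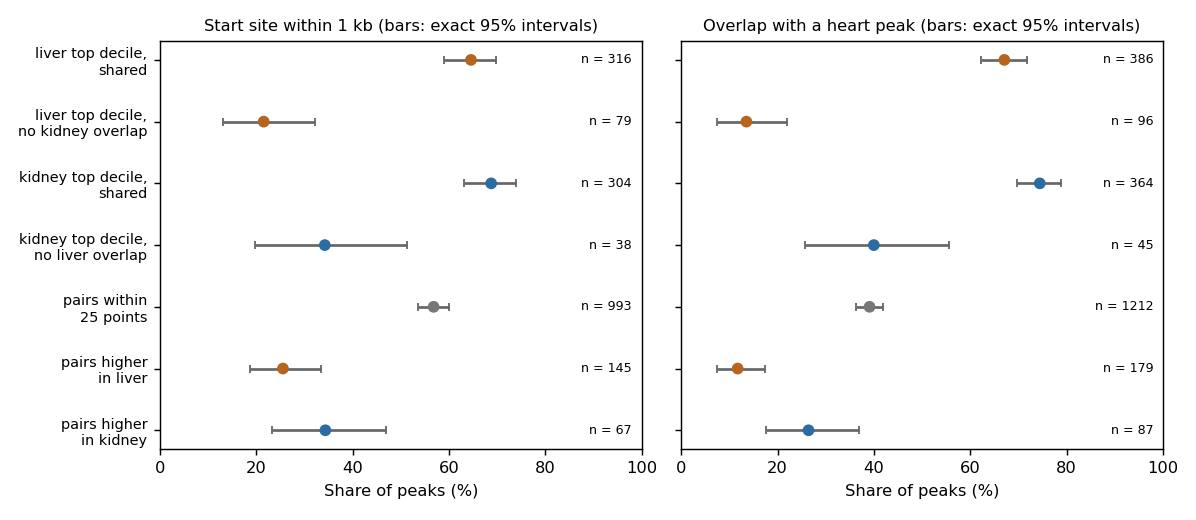
The share of peaks (horizontal axis, %) within 1 kb of a start site (left) and overlapping a heart peak (right) is shown for 7 classes of liver and kidney sites, with exact 95% intervals of counting error and the number of peaks at the right. Shared top-decile peaks lie to the right of the other classes in both panels. Top-decile liver peaks without kidney overlap reach 13.5% in heart, against 13.6% of all liver peaks.

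Genes of liver and kidney function were then counted by list. Of all protein-coding genes 14.7% had a liver peak, 13.9% a kidney peak, 7.53% a liver peak only, 6.71% a kidney peak only and 5.80% a shared pair. Liver transcription factors had a liver peak at 16 of 20 genes and a kidney peak at 6, and 10 had a liver peak only, all above the shares of all genes. Hnf4a, a nuclear receptor of hepatocytes and proximal tubule, had a shared site at 96.0 in liver and 94.6 in kidney. Ppara, the receptor that drives fatty acid oxidation, had one at 97.1 and 92.8 and a further liver peak at 92.0 inside the gene without kidney overlap. Cebpa, a factor of hepatocyte identity, was higher in liver at its shared site, at 87.8 against 52.4, and so was Xbp1, of the unfolded protein response, at 50.6 against 19.6. Onecut1 (83.3) was among those with liver peaks only. All 6 genes with a pair had a higher percentile in liver in at least 1 pair, and Mlxipl, which encodes the glucose sensor ChREBP, reached 24.9 points.

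Kidney transcription factors had peaks at fewer genes than liver transcription factors in liver. A kidney peak was assigned to 7 of 20 (35.0%, against 13.9% of all genes) and a liver peak to 2 (10.0%, against 14.7%). Neither was found at 13 (65.0%, against 78.5% of all genes). A kidney peak only was found at 5 (against 6.71% of all genes), at percentiles from 2.89 (Pax8 and Grhl2) to 56.3 (Tfcp2l1). No member had a shared pair, where 5.80% of all genes had one, and 20 members are too few to read this as a difference. Pax2, a developmental regulator of the kidney, had its highest site in liver, at 92.2, where the 1 kidney peak stood at 19.6. Pax2 was thus the 1 member of this list with a top-decile peak, and that peak was in liver.

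**Figure D5:**
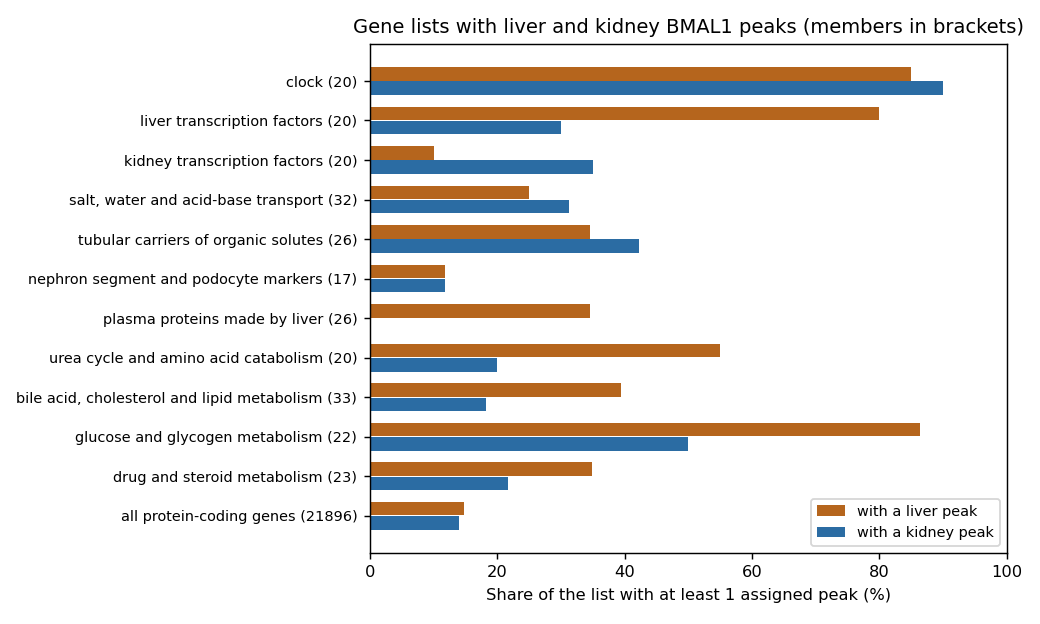
For each gene list (number of members in brackets) the bars give the share of members with at least 1 assigned liver peak and kidney peak (horizontal axis, %), above the same for all protein-coding genes in the last row. The bars of the clock list are long in both tissues, those of liver lists are longer in liver, and no plasma protein gene has a kidney bar.

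Glucose and glycogen metabolism held the most liver peaks of the metabolic lists, with 19 of 22 genes, against 11 with a kidney peak and 10 with a shared pair. Gys2, the liver glycogen synthase, had 2 top-decile liver peaks inside the gene at 96.6 and 95.6 and no kidney peak. Pygl, the liver glycogen phosphorylase, had one at 92.6 and no kidney peak. With Ppp1r3c, 3 genes of glycogen storage and breakdown were among the 87 genes of strong liver peaks without kidney overlap (13.6% of the list, against 0.397% of all genes). Most protein-coding genes had no liver peak, which lowers the last share. Among genes with a liver peak it was 2.70%, and whether this list differs from it was not tested. Unlike Gys2 and Pygl, Ppp1r3c also had a kidney peak, at 89.3, in a shared pair 7.46 points higher in liver. Genes of glucose production had sites in both tissues. Pck1, of gluconeogenesis, had 2 pairs, 19.9 and 21.4 points higher in liver, Fbp1 stood at 81.3 in liver and 70.9 in kidney, and G6pc, which releases glucose, had a shared site 16.3 points higher in liver. Pfkfb3, a regulator of glycolysis, stood at 99.1 in liver and 99.3 in kidney.

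Genes for plasma proteins had liver peaks at 9 of 26 (34.6%, against 14.7% of all genes) and kidney peaks at none (against 13.9%). Their highest percentiles were middling, with 76.9 at Alb, 71.2 at F7 and 63.2 at Fgb, the genes of albumin, coagulation factor VII and a fibrinogen chain. Genes of the urea cycle and amino acid breakdown had liver peaks at 11 of 20 and kidney peaks at 4 (55.0% and 20.0%). Arg1, the arginase that releases urea, had a liver peak at 93.4 without kidney overlap, and Ass1, which makes argininosuccinate in both organs, a shared site at 92.8 in liver and 84.8 in kidney. Of the 33 genes of bile acid, cholesterol and lipid metabolism, 13 had a liver peak and 6 a kidney peak. The shares were 39.4% and 18.2%, and those of all genes 14.7% and 13.9%. Insig2, which holds back the sterol sensor, had a liver peak 27 bp from its start site at 92.6, with no kidney peak within 1184329 bp, while its relative Insig1 had a shared site at 97.9 in liver and 91.1 in kidney.

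Of 23 genes of drug and steroid metabolism, 8 had a liver peak and 5 a kidney peak. The shares were 34.8% and 21.7%, and those of all genes 14.7% and 13.9%. Cyp17a1, a steroid hydroxylase, had a liver peak at 93.1 without overlap. Por, the reductase that serves all microsomal cytochromes P450, had shared sites at up to 92.2 in liver and 97.6 in kidney, and a further liver peak at 90.4 without overlap. Gstt2 had its highest percentile in kidney, as given above, and liver minus kidney was -1.93 points at its shared site.

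Transport genes of the kidney were split between the tissues. Of 32 genes of salt, water and acid-base transport, 8 had a liver peak, 10 a kidney peak and 1, Klhl3, a shared pair (81.8 in liver and 64.3 in kidney). The shares of all genes were 14.7%, 13.9% and 5.80%. The share with a pair, 3.12%, rests on 1 gene and is too near 5.80% to be read as a difference. The kidney peaks without a liver peak ran from 2.89 at the water channel Aqp1 to 82.7 at the sodium-proton exchanger Slc9a3. Atp1b1, a subunit of the sodium pump, stood at 80.9 in kidney and 8.82 in liver at separate sites. Sgk1, a kinase of aldosterone action, had a liver peak only (70.4). Of 26 tubular carriers of organic solutes, 9 had a liver peak, 11 a kidney peak and 6 a shared pair (34.6%, 42.3% and 23.1%). Slc22a4, an organic cation carrier, was 19.4 points higher in kidney (73.6 in liver and 93.0 in kidney), and Abcc2 and Cubn were higher in liver. Cubn, the partner of megalin, stood at 37.4 in liver and 11.8 in kidney, whereas megalin itself, Lrp2, had only its strong kidney peak. Of 17 markers of nephron segments and podocytes, 2 had a liver peak and 2 a kidney peak, 11.8% in each, against 14.7% and 13.9% of all protein-coding genes. Peaks give no expression level, so these markers bear on binding only. A liver peak lay near 4 of 8 hepatocyte markers and a kidney peak near 1, while of 12 nephron markers 3 had a liver peak and 3 a kidney peak.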

How the data were processed

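BMAL1 ChIP-seq and input libraries of mouse liver and kidney were prepared with 1% formaldehyde, 10 ng of DNA, 16 cycles of amplification and 75 bp reads, per the labels' protocols. The score of each peak was ranked as the authors deposited it, in 1 peak list per tissue made from all its libraries together, per the labels. What the score measures is not given in the sources used here. The submitters' processing notes name Bowtie2, SAMtools, HOMER and the build mm10, without roles or versions. Read depth is unknown, since the lists hold no counts.

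Lists were read with Python 3.11.15, pandas 2.3.3, numpy 2.4.6 and scipy 1.17.1. Liver peaks are 242 bp wide and kidney peaks 188 bp. Each peak was paired with the overlapping peak of the other list. Genes came from the RefSeq table of GRCm38.p6, the same assembly as mm10, with 21896 protein-coding genes. Start sites came from the promoter table, which covers 17491 of them and holds 250 bases before and 50 after each site. It has no chromosome 18 and holds fewer of the genes of chromosomes 8 and 15 than of the others. Genes were named by a rule: the 14 with the widest percentile gap in each direction, the 14 with the highest top-decile peak without overlap in each list, the clock list, up to 6 members of every other list, 3 peaks on each side of a limit and genes on both sides. Predicted genes were counted and not named, and a gene named beyond the rule is given as picked after its values were seen or stands for its list or its sequence. All 259 members of the 11 gene lists matched the table. The members of the comparison, the gene lists and the settings were chosen with earlier results of these data known. Pairing, percentiles and gene assignment were tested on simulated lists. A search for E-boxes in whole peaks was planned; no genome sequence was used here, and promoter windows were searched instead, a choice made after seeing the data.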

Additional observations from a re-analysis of the deposited data

How the results depend on the processing

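Counts under 14 settings gave 53 alternative values, of which 37 stayed close to the value reported (within 1.5 times for a count, within its 95% interval for a share) and 16 did not. Pairs higher in kidney numbered 136 with percentiles among shared peaks only, 141 with the 4034 highest peaks of each list and 134 with a limit of 20 points, against 87. In the top 5% of each list, 35 liver peaks (32 genes) and 13 kidney peaks (11 genes) had no overlap, and in the top 20% these were 294 (259) and 174 (165), since fewer or more peaks enter. Within 5 kb of a start site lay 32.9% of top-decile liver peaks without overlap, 73.4% of those shared, 77.6% of shared top-decile kidney peaks, 37.9% of pairs higher in liver and 66.5% of pairs within 25 points; the order of like and unlike classes was kept. Overlap of 50% of the narrower peak, or centres within 1000 bp, moved no count by more than 1.5 times. No paired analysis was possible because each tissue has 1 pooled list with no replicate numbers, and for the same reason no replicate could be left out. The planned motif settings in whole peaks were not run. Scores at the bottom of a list are heavily tied, and the lists give no depth, so a missing weak peak does not show missing binding.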

Other observations

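Of the 96 top-decile liver peaks without kidney overlap, 1 overlapped a microRNA hairpin and 1 more had a hairpin within 5 kb. The first lay inside Tectb at Mir6715 (score 111, rank 352, percentile 92.6), and the other one lay inside Lekr1, 3926 bp from Mir8120 (score 105, rank 405, percentile 91.5). At neither gene was a kidney peak assigned. Hairpins also lay within 5 kb of shared top-decile liver peaks, such as those near Mir6930 and Mir339. No share over all peaks is given, so the count is not read as a trait of this class.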
